A study of Mus musculus with 2 samples.

Results

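The genes described here code for demethylases that use molecular oxygen to take methyl groups off histones, DNA and RNA, together with their closest relatives. They were chosen by name from the probe sets with a single gene symbol. A symbol had to begin with Kdm and a digit, Jmjd, Alkbh, or Tet with 1, 2 or 3, or to be Fto, Phf2, Phf8, Riox1, Riox2, Hr or Jarid2. Uty was excluded, and 4 genes on the X and Y chromosomes with 19 probe sets were left out. This gave 86 of 45101 probe sets and 37 of 18193 genes. Of these, 36 code for proteins, and the remaining name, Alkbh3os1, is an antisense RNA of Alkbh3.

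The samples were 1 culture at day 12 and 1 culture at day 5 of osteoblast differentiation. Both were CD11b-negative cells from the calvariae (skull roof) of newborn mice, grown with 50 µg/ml ascorbic acid and 10 mM β-glycerophosphate, which permit collagen deposition and mineral formation. The labels give no strain or genotype and no number of animals, and CD11b is a surface protein of myeloid cells. Total RNA of each culture was labelled with biotin and hybridised to 1 Affymetrix array, so no value has a replicate error and no test was possible. Every ratio below compares these 2 arrays, and with whole cultures fewer cells of a type and less RNA per cell cannot be told apart.

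Methyl groups on lysines of histones, on cytosine in DNA and on adenine in RNA mark genes and transcripts for use or silence. Most of the enzymes that erase them, the JmjC, TET and ALKBH proteins, hold an iron atom and split oxygen with the help of 2-oxoglutarate, a metabolite of the citric acid cycle. Succinate and fumarate compete with that metabolite, so the enzymes link chromatin and RNA to oxygen supply and metabolism. The KDM1 enzymes differ in using FAD, with oxygen as the electron acceptor. In human marrow stromal cells KDM4B and KDM6B are known to promote osteogenic differentiation, and KDM3A is a known target of the hypoxia-inducible factor HIF-1.

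A signal counted as measured when it reached the 60th percentile of its array, which was 44.8 at day 12 and 46.6 at day 5. At least 1 probe set of 34 genes did so on at least 1 array, and 54 of the 86 probe sets were measured in all. Kdm4d (signal of 9.83 at day 12, against 3.57 at day 5), Tet3 (4.74 at day 12 and 3.66 at day 5) and Alkbh3os1 (0.879 at day 12 and 1.41 at day 5) lay under both floors. No ratio was taken for these 3 genes. The brightest probe set stands for each gene. Values under a floor were raised to it, and the threshold for counting a gene was a 2-fold ratio in either direction.

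At day 12 the signals of Kdm3a and Jmjd6 exceeded those at day 5 by more than 2-fold, and no measured demethylase gene was lower by that much. These 2 of 34 genes (5.88%) compare with 3.56% of all 10479 measured genes that were higher by at least 2-fold, and 1.73% were lower by at least 2-fold, so the count at that threshold is near the background. At least 1.5-fold, 8 of 34 genes (23.5%) were higher and 1 (2.94%) was lower, beside 7.25% and 7.7% of all measured genes. The 8 were Kdm3a, Jmjd6, Alkbh5, Kdm7a, Kdm6b, Jarid2, Jmjd1c and Tet1, and the lower one was Alkbh4, on its brightest probe set only. Of the 34 genes, 21 had a log2 ratio above 0 (61.8%, beside 43.6% of all measured genes). Their median log2 ratio was 0.18, with quartiles of -0.10 and 0.54, against -0.05 over all measured genes, whose quartiles were -0.27 and 0.17. The demethylase median was 0.09 with the floor at the 75th percentile, 0.08 with the median over probe sets and 0.27 after loess normalisation. The first covers fewer genes, because Alkbh2, Alkbh4, Hr, Jmjd4, Kdm1b, Kdm4b and Kdm8 were then under both floors. No all-gene median is given for that floor or for the median over probe sets. Counted by probe set, 5 of 54 were at least 2-fold higher and 0 were lower by that much, beside 3.16% and 1.72% of all measured probe sets with 1 symbol. Both measured probe sets of Jmjd6 are among the 5, so these are not 5 separate genes.

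**Figure D1:**
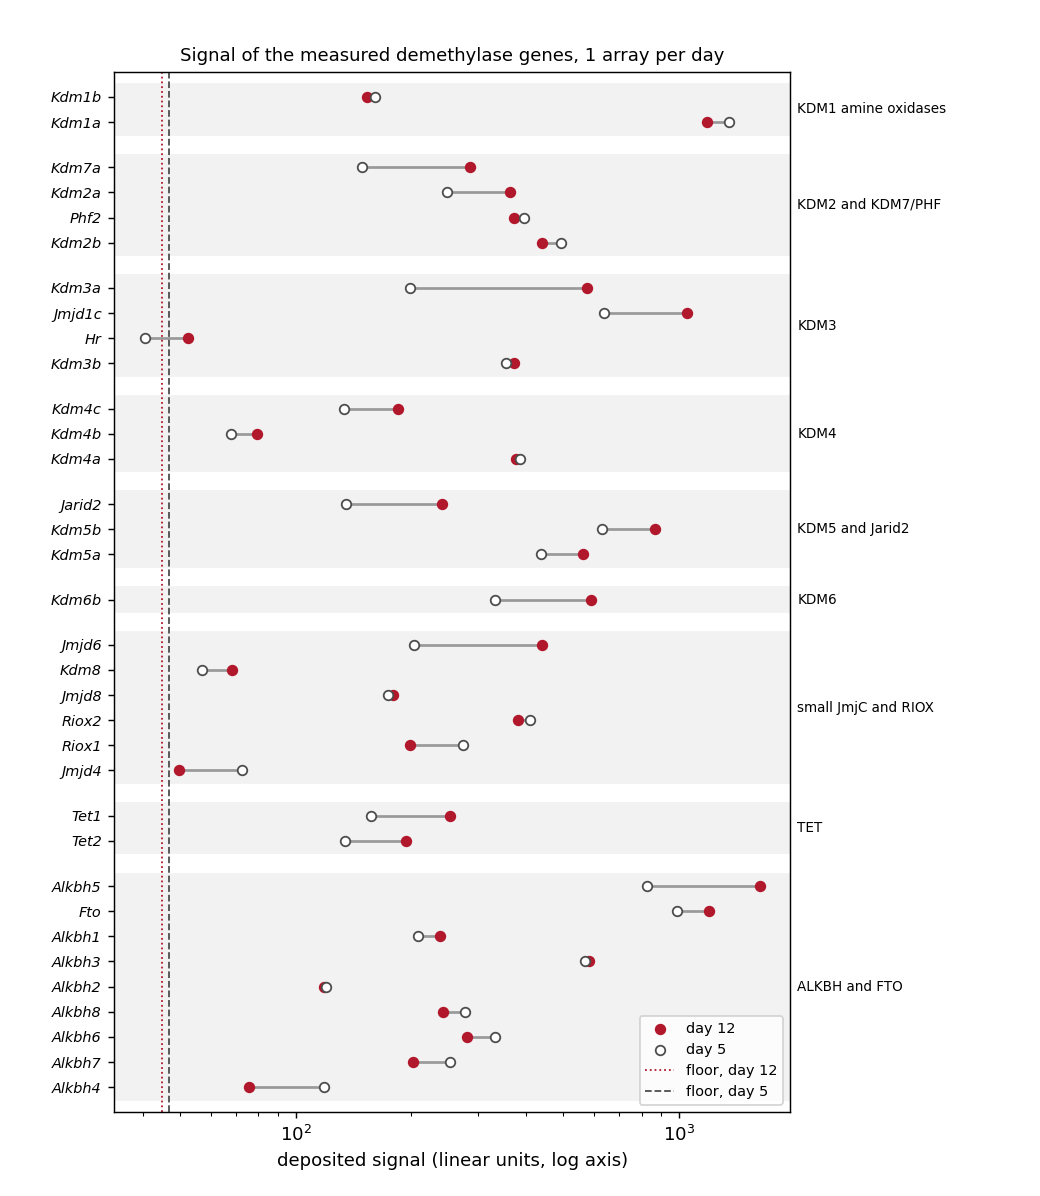
Deposited signal (log axis) of the brightest probe set of each of 34 measured demethylase genes at day 12 (filled points) and day 5 (open points), by subfamily, with 1 array per day. Dotted and dashed lines mark the floors of 44.8 and 46.6. The widest gaps to the right belong to Kdm3a and Jmjd6, and that to the left to Alkbh4. Positions of different genes are not comparable, since each probe set binds its own target.

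Repeat measurements came only from further probe sets of the same gene. Of the 34 genes, 15 had a second measured probe set. That probe set lay on the same side of 0 as the brightest in 13, beside 3283 of 4446 genes over the array. The 2 ratios differed by a median of 0.27 on the log2 scale in these 15 genes and of 0.17 in 4446 genes of the array, with a 95th percentile of 0.66 over the array. Smaller log2 ratios are therefore within what probe sets of 1 gene can differ by, and differences between cultures were not measured at all.

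Markers of other cell types differed between the cultures, and their part in the demethylase ratios was not tested. Of 8 myeloid markers 7 were measured, and all 7 were higher by at least 2-fold, with a summed signal over the 8 of 9837 at day 12, against 4114 at day 5. Itgam, which codes for CD11b, was under the floor on both arrays. All 6 chondrocyte markers were lower, 3 of them at least 2-fold, with a summed signal of 8774 at day 12, against 19843 at day 5. Of the osteoblast markers, 4 had a probe set and all 4 were higher, 3 of them at least 2-fold. All 4 endothelial markers were under both floors, the 3 adipocyte markers with a probe set were lower by less than 2-fold, and 1 of 2 measured muscle markers was at least 2-fold lower. The 5 measured markers of cycling cells had a median log2 ratio of -0.01, with values from -0.79 (Mcm2) to 0.02 (Mki67).

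The promoters of the 4 genes with the largest log2 ratios are shown, a choice made from these same signals. HIF sites were searched because human KDM3A is a known HIF-1 target, and a part of HIF in these ratios was not tested. HIF factors bind short sites whose cores are ACGTG or GCGTG. Both cores were searched on both strands in the 250 bases before each RefSeq start (build GRCm38.p6). Of 32851 such windows in the genome, 38.6% held a core. Of the 34 measured genes, 28 had 38 windows, of which 21 (55.3%) held a core. These 21 belonged to 17 genes. Windows of 1 gene can overlap, as some of Kdm2b do, and are not separate units. The share of all genes with a core was not taken, so the count of 17 has no background. Capitals mark every match in the sequences, which run 5′ to 3′ along the gene's strand and end at the base before the start.
Kdm3a, chr6:71632918-71633167, minus strand: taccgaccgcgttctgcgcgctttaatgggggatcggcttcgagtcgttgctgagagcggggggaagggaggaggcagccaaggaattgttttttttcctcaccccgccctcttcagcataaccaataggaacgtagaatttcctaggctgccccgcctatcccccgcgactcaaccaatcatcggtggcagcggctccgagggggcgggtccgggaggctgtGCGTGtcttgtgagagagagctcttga
Jmjd6, chr11:116843450-116843699, minus strand: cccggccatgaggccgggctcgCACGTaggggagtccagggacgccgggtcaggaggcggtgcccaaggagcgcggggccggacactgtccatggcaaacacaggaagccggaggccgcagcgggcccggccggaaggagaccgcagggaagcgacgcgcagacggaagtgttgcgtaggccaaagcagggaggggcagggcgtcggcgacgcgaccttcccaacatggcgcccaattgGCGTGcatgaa
Alkbh5, chr11:60537433-60537682, plus strand: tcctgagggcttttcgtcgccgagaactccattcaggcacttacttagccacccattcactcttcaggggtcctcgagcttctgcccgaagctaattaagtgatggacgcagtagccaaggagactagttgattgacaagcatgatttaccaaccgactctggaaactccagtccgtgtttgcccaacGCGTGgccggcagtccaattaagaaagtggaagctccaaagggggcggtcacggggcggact
Kdm7a, chr6:39206774-39207023, minus strand: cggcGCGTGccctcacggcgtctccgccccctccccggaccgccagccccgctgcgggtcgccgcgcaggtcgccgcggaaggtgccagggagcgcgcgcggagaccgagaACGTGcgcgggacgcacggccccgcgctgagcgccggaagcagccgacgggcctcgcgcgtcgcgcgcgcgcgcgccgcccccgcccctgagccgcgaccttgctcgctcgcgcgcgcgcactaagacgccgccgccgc
Kdm3a has 3 annotated starts, and the window printed is the 1 with a match, 27 bases before the start. The Jmjd6 window held matches 228 and 11 bases before the start, the Alkbh5 window 1 match 62 bases before it, and the Kdm7a window matches 246 and 139 bases before it. None of these 4 windows held CACGTG, the palindrome that other factors bind and that contains the first core. Among genes with lower signals, the windows of Kdm1b, Riox2, Alkbh6, Alkbh7 and Jmjd4 also held matches. So did every window of Kdm2b and 1 of 3 windows of Alkbh4, while the other lower genes with a window had none. Among genes with higher signals, Tet1, Fto, Alkbh1, Jmjd8 and Alkbh3 had none, and the others with a window had at least 1. A match describes letters in these windows and was not tested as a binding site.

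The KDM3 enzymes, which remove methyl groups from lysine 9 of histone H3, all had log2 ratios above 0, beside 43.6% of all measured genes. Their median was 0.45 over 4 genes. Kdm3a had a signal of 577 at day 12, against 199 at day 5. This was 2.89-fold higher at day 12 (log2 ratio 1.53), a ratio larger than that of 98.1% of measured genes and from a single probe set. Jmjd1c, a relative of Kdm3a, had a signal of 1051 at day 12, against 638 at day 5 (1.65-fold higher). Kdm3b, the closest paralog of Kdm3a, differed little, with 371 at day 12 and 354 at day 5 (log2 ratio 0.07). Hr, the hairless corepressor of the hair follicle, had 52.5 at day 12 and was under the floor at day 5 with 40.5, so that it was at least 1.13-fold higher. The ratio of Kdm3a was thus well above that of its closest paralog, with Jmjd1c between them.

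Kdm7a was the furthest up of the KDM2 and KDM7/PHF enzymes, which act on lysines 36, 9 and 27 of histone H3. Kdm7a, an eraser of lysine 9 and lysine 27 methylation, had a signal of 285 at day 12, against 149 at day 5 (1.92-fold higher), and 194 at day 12 and 96.7 at day 5 on its other measured probe set (2.001-fold higher). The brightest probe set lay just under the 2-fold threshold and the other just past it. With the floor at the 75th percentile the log2 ratio of Kdm7a was 0.65. Kdm2a and Kdm2b, lysine 36 demethylases that bind unmethylated CpG DNA, lay on opposite sides of 0, each by less than 1.5-fold. Kdm2a had 362 at day 12 and 249 at day 5 (log2 ratio 0.54), with a log2 ratio of 0.25 on its other measured probe set. Kdm2b had 440 at day 12 and 493 at day 5 (log2 ratio -0.16), with -0.22 on its other one. Phf2, a lysine 9 demethylase, had 372 at day 12 and 395 at day 5 (log2 ratio -0.09).

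The KDM4 enzymes, which act on lysines 9 and 36 of histone H3, differed by less than 1.5-fold. Kdm4c had a signal of 185 at day 12, against 134 at day 5 (log2 ratio 0.47). Kdm4b was close to the floors, with 79.1 at day 12 and 67.8 at day 5 (log2 ratio 0.22), and Kdm4a had 375 at day 12 and 386 at day 5 (log2 ratio -0.04). Of this family Kdm4b is the one known from human osteogenic differentiation, and its ratio is within the difference between probe sets of 1 gene seen above. Kdm4c had a log2 ratio of only 0.02 when the floor was set at the 75th percentile.

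Kdm6b, which erases lysine 27 methylation of histone H3 and so opposes Polycomb silencing, had a signal of 592 at day 12, against 332 at day 5 (1.78-fold higher). Its other measured probe set, of a type that can bind related sequences, had 454 at day 12 and 174 at day 5 (2.61-fold higher). A further probe set annotated to both Kdm6b and 1700064E03Rik, and so outside the rule, had 275 at day 12 and 118 at day 5 (log2 ratio 1.22). All 3 were higher at day 12, and they differ on whether the gene passed 2-fold. The median of the 2 probe sets of Kdm6b alone was 1.11.

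Jarid2, which lacks demethylase activity and brings the Polycomb repressive complex 2 to chromatin, was higher at day 12 on all 3 measured probe sets. Its signals were 241, 216 and 97.8 at day 12, against 135, 125 and 62.1 at day 5, which are log2 ratios of 0.83, 0.79 and 0.65. With the floor at the 75th percentile the log2 ratio of Jarid2 was 0.41, which is under 1.5-fold. The active KDM5 enzymes erase lysine 4 methylation of histone H3, a mark of promoters in use. Kdm5b had 866 at day 12 and 631 at day 5 (log2 ratio 0.46), but 183 at day 12 and 181 at day 5 on its other measured probe set (log2 ratio 0.01). Kdm5a had 561 at day 12 and 436 at day 5 (log2 ratio 0.36), with 0.10 and -0.03 on its other 2 measured probe sets. For neither active KDM5 gene did the probe sets give 1 size of change. The KDM1 amine oxidases, which also act on lysine 4, had slightly lower signals, except Kdm1b after loess (log2 ratio 0.03). Kdm1a (LSD1) had 1186 at day 12 and 1352 at day 5 (log2 ratio -0.19, and -0.23 on its other probe set), and Kdm1b had 154 at day 12 and 161 at day 5 (log2 ratio -0.07).

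The TET enzymes oxidise methylated cytosine, the first step of active DNA demethylation. Tet1 had a signal of 252 at day 12, against 157 at day 5 (1.61-fold higher). Its other 2 measured probe sets had 165 and 68.1 at day 12, against 125 and 50.8 at day 5, with log2 ratios of 0.41 and 0.42. Tet2 had 194 at day 12 and 135 at day 5 (log2 ratio 0.53). Both genes had higher signals at day 12, and with the floor at the 75th percentile their log2 ratios were 0.47 and 0.09, because the day 5 signals then lay under it.

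Alkbh5 had the highest ratio of the ALKBH and FTO genes, while the log2 ratios of the other 8 lay between -0.65 and 0.28. Alkbh5 erases N6-methyladenosine (m6A), the commonest internal mark of messenger RNA. It had a signal of 1626 at day 12, against 825 at day 5 (1.97-fold higher), and 547 at day 12 and 315 at day 5 on its other probe set (1.74-fold higher). Fto, the other known eraser of that mark, had 1200 at day 12 and 987 at day 5 (log2 ratio 0.28), and its other measured probe set, close to the floors, gave -0.09. The remaining members are repair and tRNA enzymes or have other substrates. Alkbh1, which acts on tRNA, had 238 at day 12 and 209 at day 5 (log2 ratio 0.19), but -0.36 on its other measured probe set. The repair enzymes of alkylated bases differed least, with signals of 118 at day 12, against 120 at day 5 for Alkbh2 (log2 ratio -0.02). Alkbh3 had 585 at day 12 and 569 at day 5 (log2 ratio 0.04). Alkbh8, which modifies the wobble uridine of tRNA, had 242 at day 12 and 276 at day 5 (log2 ratio -0.19). Alkbh6 had 281 at day 12 and 331 at day 5 (log2 ratio -0.24), and Alkbh7, a mitochondrial protein, had 203 at day 12 and 253 at day 5 (log2 ratio -0.32). Alkbh4, known for removing a methyl group from actin, had 75.5 at day 12 and 119 at day 5 and was 1.57-fold lower. Its other 2 measured probe sets gave only -0.16 and -0.09, so that the size for Alkbh4 rests on 1 probe set.

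Jmjd6 was the second gene past 2-fold. It is a lysyl hydroxylase of splicing factors, and its role as a demethylase is debated. Its signal was 440 at day 12 and 204 at day 5 (2.16-fold higher), and 438 at day 12 and 200 at day 5 on its other measured probe set (2.19-fold higher). The related small JmjC proteins, mostly hydroxylases, did not share this. Kdm8 had 68.4 at day 12 and 57.2 at day 5 (log2 ratio 0.26) and Jmjd8, a protein of the endoplasmic reticulum, had 180 at day 12 and 175 at day 5 (log2 ratio 0.04). The ribosomal oxygenases Riox1 and Riox2, which hydroxylate histidines of ribosomal proteins, were on the lower side. Riox1 had 199 at day 12 and 274 at day 5 (log2 ratio -0.46), and Riox2 had 382 at day 12 and 409 at day 5 (log2 ratio -0.10), with -0.41 and -0.12 on its other 2 measured probe sets. Jmjd4, which hydroxylates a translation termination factor, had 49.7 at day 12 and 72.3 at day 5 (log2 ratio -0.54), both close to the floors.

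**Figure D2:**
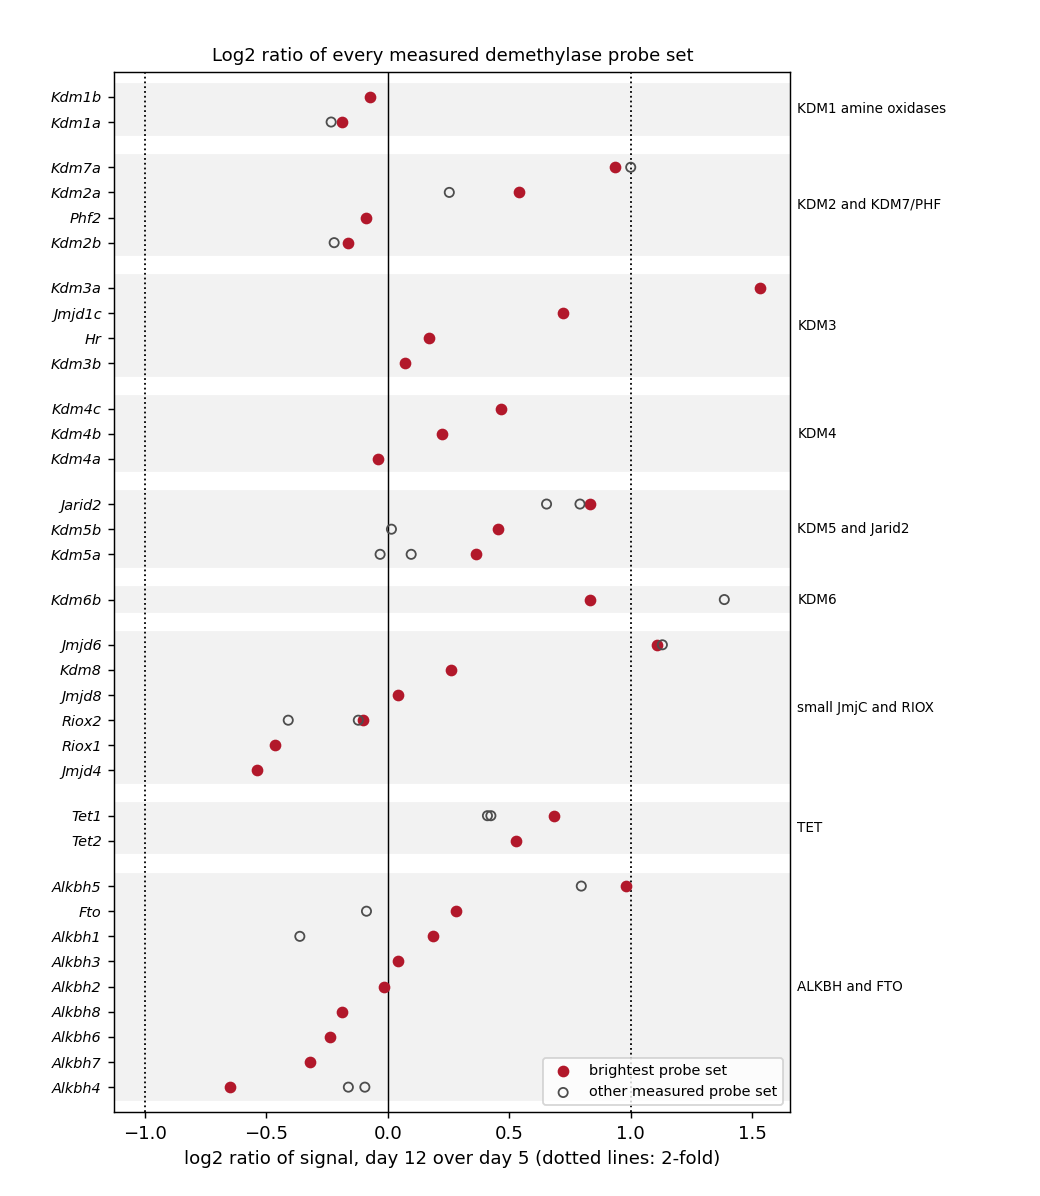
Log2 ratio of signal, day 12 over day 5, of each of 54 measured demethylase probe sets, by gene and subfamily. Filled points are the brightest probe set of a gene and open points its other measured probe sets, and dotted lines mark 2-fold. Probe sets of Jmjd6, Alkbh5, Kdm7a and Jarid2 lie close together, while those of Kdm6b, Kdm5b, Alkbh1 and Alkbh4 spread.

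The genes that write or read the same marks are set beside the demethylases by lists, with no test between them. None of 28 measured histone lysine methyltransferase genes passed 2-fold in either direction on its brightest probe set, and their median log2 ratio was 0.01. Nsd1, with 0.12 on its brightest probe set, had -1.24 on its lowest measured one. The 4 with the largest ratios were Smyd3 (0.70), Kmt5c (0.67), Dot1l (0.48) and Kmt2a (-0.46, but 0.46 on another probe set). Of 6 measured partners of Polycomb repressive complex 2, none passed 2-fold, with Mtf2 at -0.34, Suz12 at 0.16, Rbbp4 at -0.15, Eed at -0.11 and a median of -0.10.

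Among 6 measured partners of the FAD amine oxidases, Rcor2, a corepressor that binds Kdm1a, had a signal of 316 at day 12 while its day 5 value of 41.3 was under the floor. It was at least 6.77-fold higher, the only partner past 2-fold, and it was not past 2-fold with the floor at the 75th percentile. Hdac1 had a log2 ratio of -0.36, Glyr1 -0.34 and Rcor3 -0.31, and the median of the 6 was -0.22. None of 11 measured genes of DNA methylation and base excision passed 2-fold (median -0.15). Mbd2, which binds methylated DNA, had a log2 ratio of 0.55, the methyltransferases Dnmt3a and Dnmt1 had 0.46 and -0.38, and Mbd3 had -0.31. The lowest measured probe set of Dnmt3a gave -0.29.

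Of 17 measured m6A writers and readers, none was higher by at least 2-fold and 1 was lower by that much, with a median log2 ratio of -0.13. The lower one was Igf2bp3, a reader that stabilises marked transcripts, with 92.3 at day 12 and 300 at day 5 (3.24-fold lower). The log2 ratios of its measured probe sets spanned -1.70 to -0.29, and it was not past 2-fold with the 75th percentile floor, the median over probe sets, or without probe sets of shared sequence. Zc3h13 had -0.50, Igf2bp1 -0.47 and Rbm15 0.34, of which Zc3h13 and Igf2bp1 had another probe set above 0.

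The oxygenases outside the demethylase rule that share the iron and 2-oxoglutarate chemistry included larger ratios. Of 21 measured, 6 were higher by at least 2-fold and none was lower by that much, beside 3.56% and 1.73% of all measured genes. The median log2 ratio of the 21 was 0.21. The 6 were the oxygen sensor genes Egln3 (at least 48.8-fold) and Egln1 (4.15-fold) and the collagen hydroxylase genes P3h2 (8.30-fold), P4ha1 (5.54-fold), P4ha2 (4.34-fold) and Plod1 (2.42-fold). The largest demethylase ratio, 2.89-fold for Kdm3a, lay between those of Plod1 and Egln1 when both lists are ranked as 1. All 15 measured hypoxia-induced genes with autosomal probe sets had higher signals at day 12, 13 of them at least 2-fold. Over all measured genes 43.6% had a log2 ratio above 0 and 3.56% were at least 2-fold higher. The hypoxia-induced list, chosen with earlier results of these data known, had a median log2 ratio of 2.89. None of 18 measured genes of enzymes that make or use 2-oxoglutarate, succinate, fumarate or related acids passed 2-fold, and their median was -0.0031. Gpt2 (0.57), D2hgdh (-0.29), Dlst (-0.28) and Got1 (0.22) were furthest from 0 there.

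**Figure D3:**
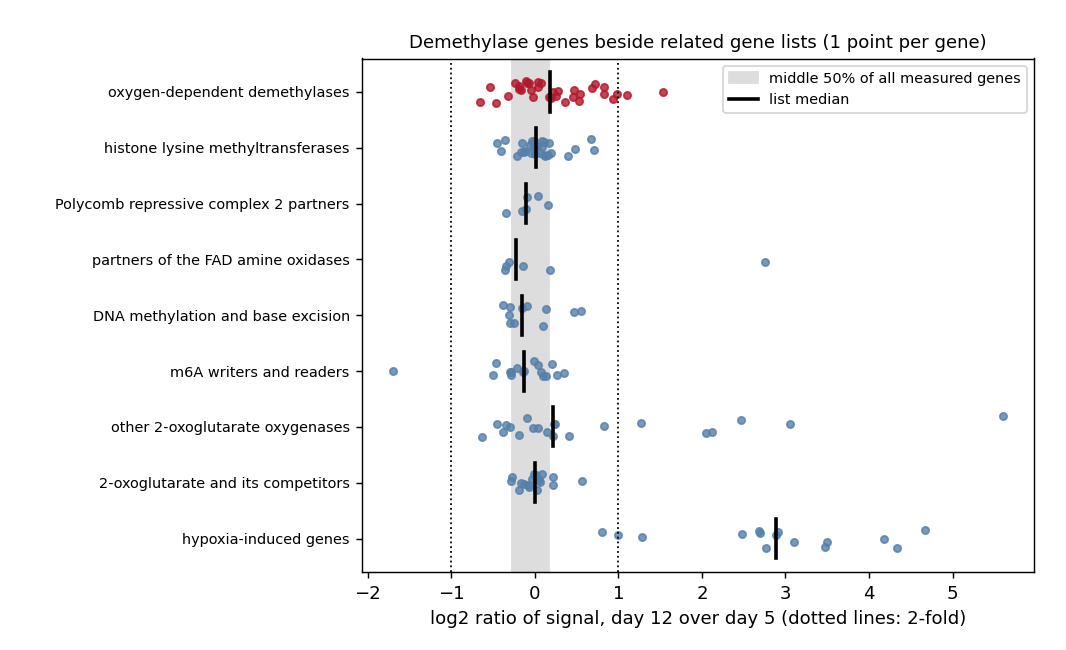
Log2 ratio of signal, day 12 over day 5, of each measured gene (1 point per gene, spread vertically at random) of the demethylases and 8 related lists. Black bars are list medians, the grey band spans the quartiles of all measured genes (-0.27 to 0.17) and dotted lines mark 2-fold. The demethylase median of 0.18 sits at the upper edge of the band, and that of the hypoxia-induced genes at 2.89.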

How the data were processed

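Signal intensity of 45101 probe sets on 2 Affymetrix arrays was used as the authors deposited it, on a linear scale and with no detection call. Per the submitters' processing notes the tools were GCOS 1.4 and MAS5, with no settings given. The mean after trimming 2% at each end was 200.0 on both arrays, so both were scaled to 1 target and total RNA per cell cannot be compared. No genome build of the probe design was used here.

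Names came from the platform annotation, with symbols updated through the Entrez number for 34741 of 34945 that had 1 symbol. The update changed no symbol among the members. The 932 probe sets with several symbols and 9160 without any stayed unnamed. List genes without a probe set of their own were not analysed here. Among the demethylases, Jmjd7 had only a probe set with several symbols.

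The brightest probe set by mean log2 signal stood for a gene, and values under the 60th percentile floor were raised to it, which understates the ratios of such genes. The log2 ratio is that of day 12 over day 5. Genes to be named were all measured members, and from each related list at most 4 with the largest absolute log2 ratio and any past 2-fold. The members, lists and thresholds were chosen with earlier results of these data known. Short probes can bind near-identical sequences, so paralogs are uncertain in part. Promoter sequences are from RefSeq, build GRCm38.p6, matched by symbol. The motif search was chosen after the signals had been seen, and its window was shortened from the 300 bases of the promoter table to the 250 before the start after the shares for the longer window had been seen. The code was tested on simulated data. Alternatives changed the normalisation (median centring, quantile, loess), the floor (50th and 75th percentile, or a pseudocount of 20), the choice of probe sets, the gene names and the threshold (1.5-fold and 3-fold). Tools were pandas 2.3.3 and numpy 2.4.6 in Python 3.11.15, with statsmodels 0.14.6 for loess, scipy 1.17.1 and matplotlib 3.10.9. The number of arrays, 1 per day, limits the precision.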

Additional observations from a re-analysis of the deposited data

How the results depend on the processing

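The count of 2 demethylase genes at least 2-fold higher was 4 after loess, where Alkbh5 and Kdm7a passed as well, 5 when probe sets were counted, 8 at 1.5-fold and 0 at 3-fold. The count of 0 at least 2-fold lower was 1 at 1.5-fold. Both counts were within 1.5 times, or equal, under the other alternatives, and Kdm3a and Jmjd6 were past 2-fold in all 8 alternatives to the normalisation, floor and choice of probe sets. The median of the demethylases was 0.19 under median centring, 0.23 under quantile normalisation and 0.27 after loess, while that of all measured genes was -0.04, -0.03 and 0.01. With the floor at the 75th percentile the demethylase median was 0.09, and with the median over probe sets 0.08. No all-gene median is given for these settings. At the 75th percentile floor Alkbh2, Alkbh4, Hr, Jmjd4, Kdm1b, Kdm4b and Kdm8 were not measured, so demethylase and subfamily medians there can cover fewer genes.

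Some list medians changed by more than 0.17, the median difference between probe sets of 1 gene. With the floor at the 75th percentile, the medians were 0.72 for KDM3, -0.0094 for KDM4, 0.28 for TET and 2.35 for the hypoxia-induced genes, and 0 partners of the FAD amine oxidases were at least 2-fold higher and 0 m6A genes at least 2-fold lower. The last count was also 0 with the median over probe sets and without probe sets of shared sequence. With the median over probe sets, KDM5 and Jarid2 had 0.24, KDM6 1.11 and the hypoxia-induced genes 2.70, and with a pseudocount the last list had 2.64. Of 265 single-gene values under alternatives, 250 moved by no more than 0.17 and none past 2-fold changed sign. Across the settings in which a gene was measured, 19 genes stayed above 0, 10 below 0 and 5 lay on both sides (Alkbh1, Alkbh2, Jmjd8, Kdm1b and Kdm4a). Genes under both floors at the 75th percentile had no value at that setting. The longer promoter window of 300 bases was an alternative chosen after seeing the data. In it 20 demethylase genes held a HIF core, against 17 in the 250 bases before the start. No share over all genes was taken for these counts. By window, 63.2% of the demethylase windows and 43.8% of all windows held a core, against 55.3% and 38.6% in the 250 bases. No paired analysis was possible because each day had 1 array, and no replicate could be left out.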
